A study of Mus musculus with 12 samples.

Results

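With listed COX isoform genes left out, 35 nuclear genes of complexes II to V of oxidative phosphorylation were examined in inguinal white adipose tissue (iWAT). They were taken by symbol from the 23420 genes of the count table, and all 35 passed the filter on low counts, as did 15306 genes in all. They comprise 4 genes of complex II, 9 of complex III with cytochrome c1, Cycs for cytochrome c, 6 of complex IV and 15 of complex V, which the table lists under their older Atp5 symbols. No entry was found in the count table for the 6 subunits of complexes III to V that are encoded by mitochondrial DNA, so they were not analysed.

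Complex II passes electrons from succinate to ubiquinone, complex III passes them on to cytochrome c, and complex IV hands them to oxygen. Complexes III and IV pump protons, and complex V, the ATP synthase, lets protons flow back through a ring of c subunits to make ATP. In brown and beige adipocytes UCP1 lets protons return without ATP synthesis, and brown fat is known for much respiratory chain and little ATP synthase, a balance in which the supply of subunit c has been implicated.

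RNA of iWAT, a depot that can gain beige adipocytes, was sequenced to ask how adipocyte HIF2α acts on the response to cold. The 12 libraries came from C57BL/6 male mice aged 10 weeks, 3 per group in 4 groups. WT mice were HIF2a loxP/loxP, and HIF2α AKO mice were Adipoq-Cre HIF2a loxP/loxP, so both genotypes carried the floxed allele and only the latter carried Cre, which the Adipoq promoter drives in adipocytes. Mice were kept at thermoneutrality (TN, 30 °C) for 1 week or exposed to cold (4 to 6 °C) for 3 days. The samples are whole tissue, in which more cells of a type and more RNA per cell cannot be told apart.

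Libraries held 22368316 to 35204631 gene counts, and counts of single members ranged from 678 for Atp5g1 to 115062 for Atp5b. Levels are given as CPM, counts scaled to library size with TMM factors. Epas1, which encodes HIF2α, lay at 278 to 430 CPM in TN WT, 289 to 394 CPM in TN HIF2α AKO, 562 to 743 CPM in cold WT and 743 to 986 CPM in cold HIF2α AKO. No library labelled HIF2α AKO thus showed a loss of Epas1. A count over the whole gene need not fall when a floxed part is lost, but whether this applies here was not tested. The paper reports lower Hif1a and/or Hif2a mRNA in adipose tissue of its knockout mice, and genotypes are given as labelled. The summed CPM of 12 skeletal muscle markers was 1983 in TN HIF2α AKO replicate 2 and 1723 in cold HIF2α AKO replicate 1 against at most 116 in the other 10 libraries, so values are also given without these libraries where they matter. The adipocyte markers Adipoq, Plin1, Fabp4, Lipe, Pparg and Cidec were present in every library.

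The start regions of 3 members that stand at different places in the response are shown, the first with the largest rise upon cold of all members (Cycs), the next with the largest in complex II (Sdhd) and the last with the smallest of all (Atp5g1), and they were chosen after these values were seen. They are RefSeq promoters of build GRCm38.p6, from 250 bases before to 50 bases after the start of transcription, all on the minus strand, at chr6:50566520-50566819, chr9:50603800-50604099 and chr11:96075582-96075881. Capitals mark matches to the letters of an NRF1 site, an ERR site, an ETS site, a YY1 site or an E-box.
Cycs: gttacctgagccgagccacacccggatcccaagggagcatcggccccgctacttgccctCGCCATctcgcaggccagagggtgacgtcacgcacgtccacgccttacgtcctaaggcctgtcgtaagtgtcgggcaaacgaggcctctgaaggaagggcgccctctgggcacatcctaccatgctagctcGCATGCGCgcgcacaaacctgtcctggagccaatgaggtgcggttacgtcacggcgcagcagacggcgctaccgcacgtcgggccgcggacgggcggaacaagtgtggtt
Sdhd: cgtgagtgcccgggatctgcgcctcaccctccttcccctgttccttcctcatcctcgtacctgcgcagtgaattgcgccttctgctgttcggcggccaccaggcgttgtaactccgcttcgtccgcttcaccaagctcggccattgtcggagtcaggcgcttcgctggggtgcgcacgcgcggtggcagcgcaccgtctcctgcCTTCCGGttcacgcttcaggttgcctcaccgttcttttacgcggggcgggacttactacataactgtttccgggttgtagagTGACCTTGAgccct
Atp5g1: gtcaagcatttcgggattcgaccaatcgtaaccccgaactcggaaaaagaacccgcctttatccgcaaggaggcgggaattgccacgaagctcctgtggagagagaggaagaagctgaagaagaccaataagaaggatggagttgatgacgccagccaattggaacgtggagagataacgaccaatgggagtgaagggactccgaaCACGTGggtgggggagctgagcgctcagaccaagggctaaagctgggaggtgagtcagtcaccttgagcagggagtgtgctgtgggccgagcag
In the Cycs window the NRF1 site begins at position -60 and the YY1 site at -191 from the start, whereas the Sdhd window holds an ETS site at -46 and an ERR site at 36. None of the NRF1, ERR, ETS and YY1 letters occur in the Atp5g1 window, where an E-box begins at -44. A match of letters is a description and no measure of binding.

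Upon cold exposure the genes of complexes II to V were higher in iWAT of WT mice. In total 34 of the 35 members rose (edgeR's quasi-likelihood test, Benjamini-Hochberg adjusted p under 0.05), none had a value below 0, and 15.6% of all tested genes were called higher. The median log2 fold change of the members was 1.54, or 2.90-fold, beside a median of -0.03 over all tested genes. With libraries scaled by size alone, the median of all tested genes moved to -0.33, that of the members to 1.24 and the count of members called to 31. Cold and TN mice did not overlap for the same number of members, 34, which was true in this direction of 22.7% of all tested genes. The share of all gene counts taken by the 35 members went from 0.696% ± 0.127 (SD, n = 3) in TN WT to 1.68% ± 0.105 (SD, n = 3) in cold WT.

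**Figure D1:**
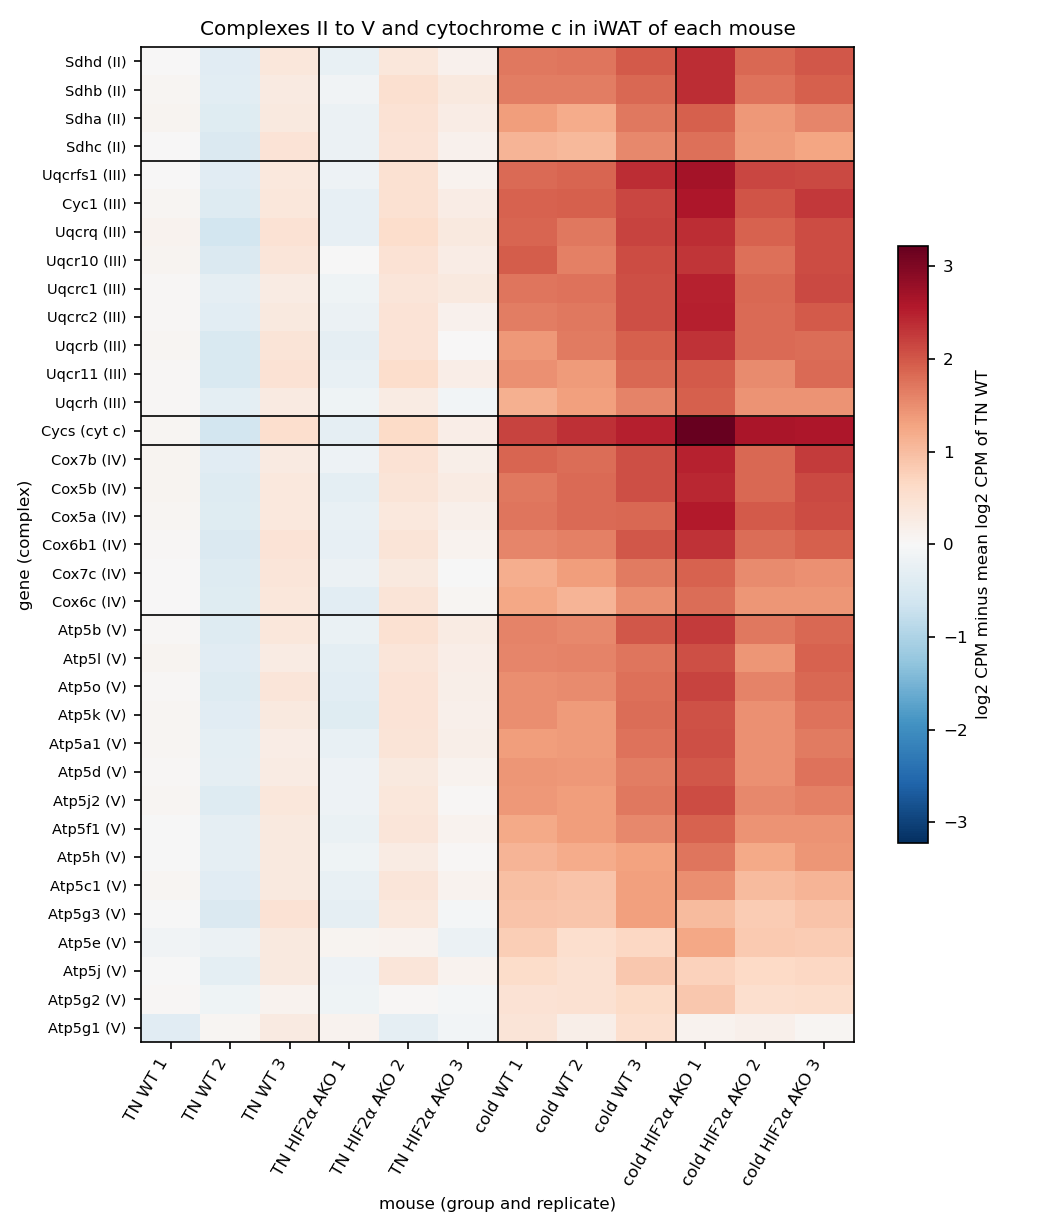
Log2 CPM of the 35 members in each of the 12 mice, relative to the mean of TN WT, with genes ordered within each complex by their rise in cold WT. Red marks higher and blue lower levels, and Cycs in cold HIF2α AKO replicate 1 is the darkest cell, whereas the rows of Atp5g1 and Atp5g2 at the foot stay pale.

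Cycs, the soluble carrier between complexes III and IV, had the largest rise. It was at 62.5, 39.8 and 87.3 CPM in the 3 TN WT mice and at 273, 305 and 341 CPM in the 3 cold WT mice. The TN and cold mice were far apart, and no cold WT mouse came near the highest TN WT mouse. Its log2 fold change was 2.28 ± 0.30 (SE), 4.84-fold (edgeR's quasi-likelihood test, Benjamini-Hochberg adjusted p = 0.00106).

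In complex II all 4 genes rose, and the median log2 fold change was 1.55. Sdhd, a haem-binding membrane anchor, went from 124, 96.1 and 158 CPM in TN WT to 398, 408 and 482 CPM in cold WT (3.41-fold, log2 1.77 ± 0.22 SE). Sdhc, the other anchor, showed the smallest change of the complex, from 113, 80.0 and 151 CPM to 235, 229 and 321 CPM (2.28-fold, log2 1.19 ± 0.25 SE). Both anchors stayed apart between TN and cold mice. The flavoprotein gene Sdha and the iron-sulfur protein gene Sdhb lay between them, at 1.40 and 1.69.

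Complex III had the highest median log2 fold change of the 4 complexes as listed here in WT, 1.84, and all 9 of its genes rose. Uqcrfs1, the Rieske iron-sulfur protein, went from 124, 94.8 and 156 CPM in TN WT to 435, 446 and 636 CPM in cold WT (4.04-fold, log2 2.01 ± 0.25 SE). Cyc1, the cytochrome c1 that reduces cytochrome c, followed at 1.97, and Uqcrq, Uqcr10, Uqcrc1 and Uqcrc2 lay between 1.79 and 1.86. The hinge protein gene Uqcrh had the smallest value, from 107, 84.3 and 128 CPM to 233, 262 and 316 CPM (2.53-fold, log2 1.34 ± 0.20 SE). Even there the lowest cold WT mouse exceeded the highest TN WT mouse.

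In complex IV all 6 genes examined rose, and the median log2 fold change was 1.73. Cox7b, a small subunit gene on the X chromosome, went from 103, 75.3 and 120 CPM in TN WT to 360, 342 and 413 CPM in cold WT (3.74-fold, log2 1.90 ± 0.22 SE). Cox6c, another small subunit, went from 101, 76.3 and 128 CPM to 237, 213 and 280 CPM (2.40-fold, log2 1.26 ± 0.22 SE). Cox5b, Cox5a and Cox6b1 lay between 1.70 and 1.84, nearer to Cox7b, and Cox7c lay at 1.37.

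Complex V had the lowest median of the 4 complexes as listed here, 1.36, and the widest range. Atp5b, the catalytic β subunit of the F1 head, went from 1192, 869 and 1481 CPM in TN WT to 3476, 3354 and 4629 CPM in cold WT (3.24-fold, log2 1.69 ± 0.27 SE). The head genes Atp5a1 and Atp5d rose by 1.49 and 1.47 on the log2 scale, whereas the γ subunit gene Atp5c1 rose by 1.05 and the ε subunit gene Atp5e by 0.66. In the peripheral stalk, which holds the head still, Atp5o, Atp5f1 and Atp5h rose by 1.57, 1.36 and 1.18, whereas Atp5j rose by 0.63 ± 0.18 (SE, edgeR adjusted p = 0.0287). The membrane subunit genes Atp5j2, Atp5k and Atp5l lay close together, between 1.45 and 1.61. Of 4 further genes listed for the ATP synthase that are not among the 35 members, Usmg5 and 2010107E04Rik rose by 1.45 and 1.24. The other ones, Atp5s at 0.28 ± 0.225 (SE) and Atpif1 at -0.21 ± 0.11 (SE), had no call (edgeR adjusted p = 0.363 and 0.175). Some low values lost their calls with 1 library left out. Atp5e did so without TN WT replicate 1 (0.60, edgeR adjusted p = 0.0601) and without TN WT replicate 2 (0.54, edgeR adjusted p = 0.0737). Atp5j lost its call without TN WT replicate 1 or 2 and without cold WT replicate 1 or 3, at 0.47 to 0.66 (edgeR adjusted p from 0.051 to 0.115). Fewer of all tested genes were called in these fits as well, 1381 to 2542 in either direction against 3259 with all libraries.

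**Figure D2:**
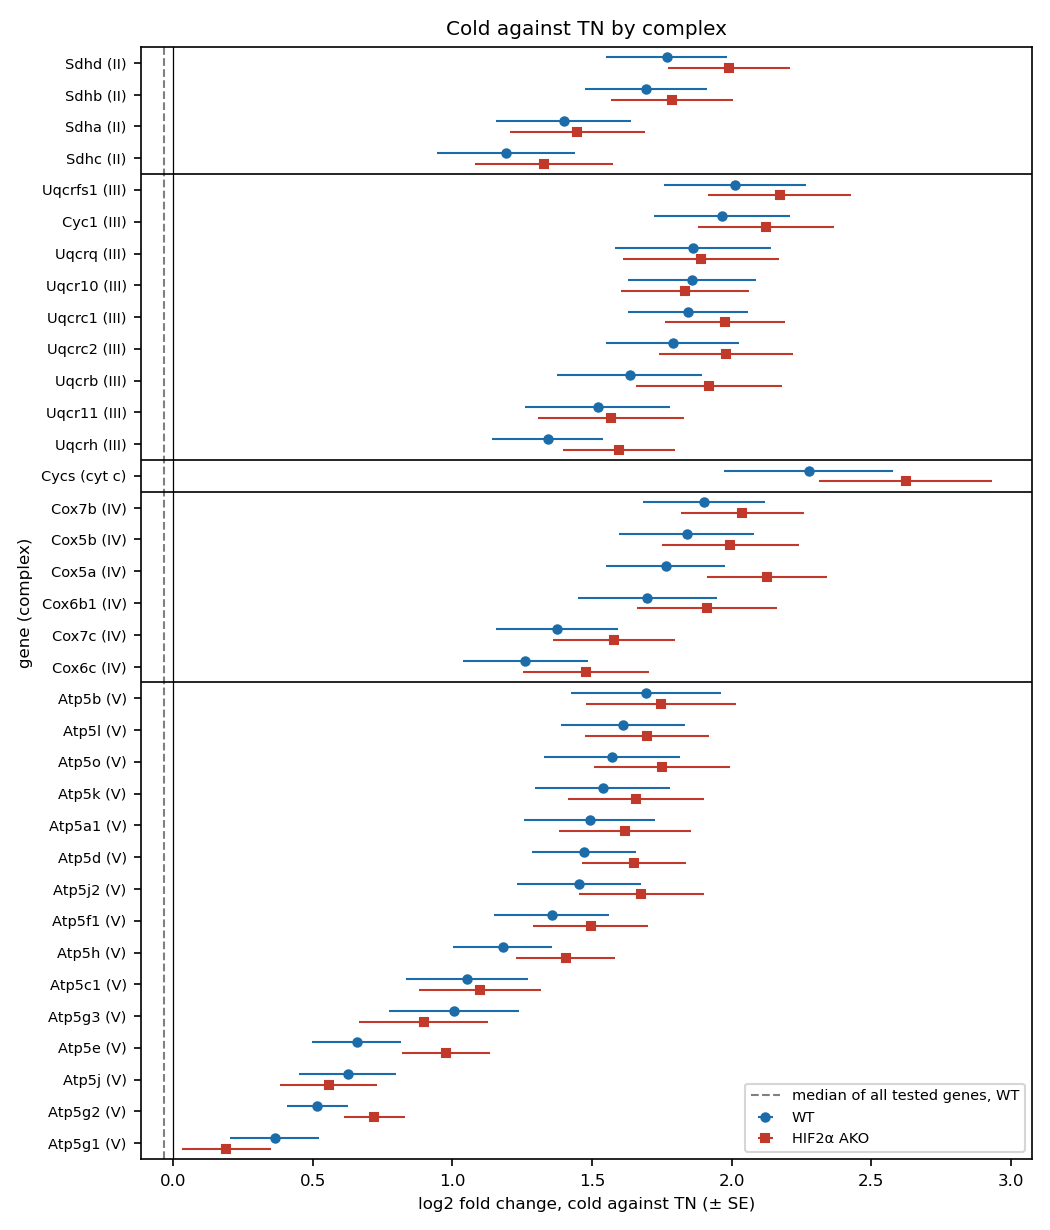
Log2 fold change of cold against TN with its SE for each member in WT (circles) and HIF2α AKO (squares), by complex, with the median of all tested genes in WT as a dashed line. The members of complexes II, III and IV lie at 1.19 or more in both genotypes, and the foot of complex V reaches down to Atp5g1 at 0.36 and 0.19.

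The order of the complexes by their median, III above IV above II above V, was the same in WT in all 22 ways in which the counts were fitted. Many of these fits could hardly change the order. Another scaling shifts all genes about alike, and leaving out a HIF2α AKO library keeps every WT library. In HIF2α AKO mice complex IV came first with 1.95, before complex III with 1.92, complex II with 1.62 and complex V with 1.495, and complex V was last in every fit. There, too, other scalings and fits without a WT library could hardly change the order. Read per mouse as the mean log2 change from TN WT, cold WT mice stood at 1.66, 1.66 and 2.03 for complex III and at 1.12, 1.08 and 1.37 for complex V, so each mouse had the larger value for complex III. The same held in cold HIF2α AKO mice, with 2.35, 1.81 and 1.98 for complex III and 1.59, 1.16 and 1.29 for complex V. Without its 3 c subunit genes complex V had a median of 1.46 in WT, still the lowest, and of 1.635 in HIF2α AKO, above complex II. These orders hold for the listed genes only. The 10 COX isoform genes tested, which were left out of complex IV, had a median of 1.27 in WT. They ranged from Cox6a2 at -0.34 ± 0.81 (SE), which was not called, to Cox7a1 at 5.58 ± 0.58 (SE). Both were low in TN WT, with means of 1.57 CPM for Cox6a2 and 0.969 CPM for Cox7a1.

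The c subunit of the proton ring is made from 3 genes, Atp5g1, Atp5g2 and Atp5g3, which encode the same mature protein behind different import sequences. Atp5g1 (chr11:96068852-96075670, minus strand) lay at 23.7, 31.4 and 37.3 CPM in TN WT and at 40.0, 34.8 and 44.0 CPM in cold WT. The groups overlapped, since cold WT replicate 2 lay below TN WT replicate 3, and the log2 fold change of 0.36 ± 0.16 (SE) did not pass the test (edgeR's quasi-likelihood test, Benjamini-Hochberg adjusted p = 0.116). Atp5g1 was the only member without a call, but it was called with limma voom with sample quality weights (0.59, adjusted p = 0.00753) and without TN WT replicate 3 (0.53, adjusted p = 0.0364).

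Atp5g2 (chr15:102662864-102672352, minus strand) went from 55.4, 48.7 and 58.1 CPM in TN WT to 74.1, 76.0 and 82.2 CPM in cold WT. These mice did not overlap, and the difference of 0.52 ± 0.11 (SE) on the log2 scale, 1.43-fold, passed the test (adjusted p = 0.00826). Atp5g3 (chr2:73908447-73911326, minus strand) went from 177, 128 and 246 CPM to 333, 331 and 444 CPM, 2.01-fold (log2 1.01 ± 0.23 SE, edgeR adjusted p = 0.0131). It thus had the largest change of the 3 genes, and of the other complex V genes Atp5e and Atp5j alone had a smaller one. Without cold WT replicate 3 Atp5g3 lost its call (0.85, edgeR adjusted p = 0.0559).

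**Figure D3:**
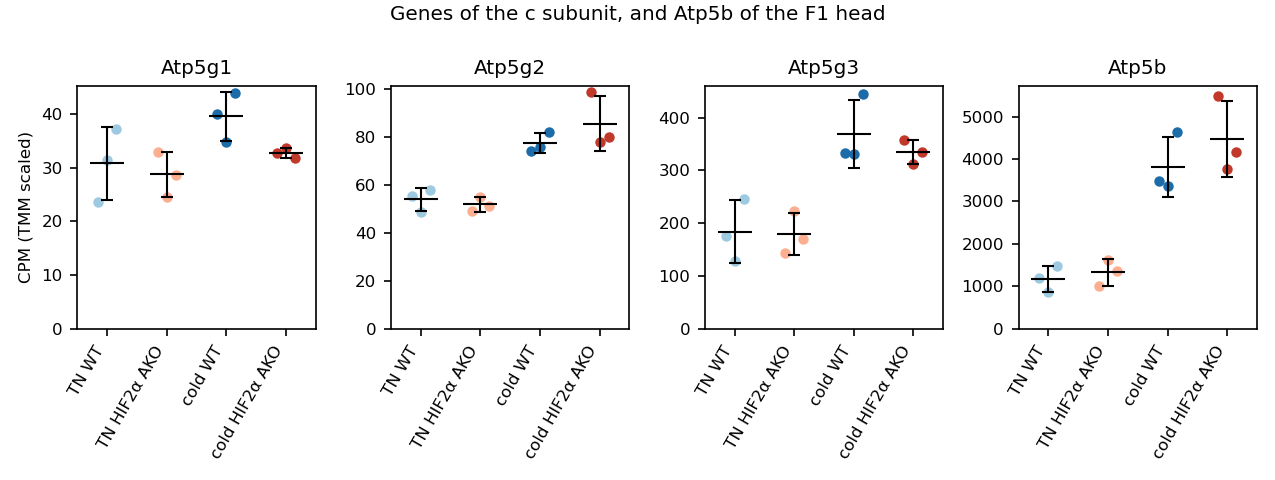
CPM of Atp5g1, Atp5g2, Atp5g3 and, for comparison, Atp5b in each mouse (points) with the mean and SD of each group (bars), each panel from 0. Atp5b separates TN from cold mice widely, whereas the cold HIF2α AKO mice for Atp5g1, at 31.8 to 33.7 CPM, lie within the range of the TN mice.

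Differences between members of related role were tested within each mouse, with temperature permuted within genotype for 6 pairs (two-sided exact permutation test, 400 arrangements, smallest possible p 0.005, p adjusted over the 6 pairs). Relative to Atp5g3, Atp5g1 was 0.69 lower on the log2 scale upon cold than at TN (exact permutation test, adjusted p = 0.01), with 5 of 6 cold mice below all TN mice. Atp5g2 was 0.36 lower relative to Atp5g3 (exact permutation test, adjusted p = 0.0375), with 3 of 6 cold mice below all TN mice, and this call was lost in 8 of the 12 tests that each left out 1 library. These were TN WT replicate 2, TN HIF2α AKO replicates 1 and 3, all 3 cold WT replicates and cold HIF2α AKO replicates 2 and 3, with values from -0.39 to -0.28. The difference of Atp5g1 to Atp5g2, -0.33, did not pass (exact permutation test, adjusted p = 0.078), except without TN WT replicate 1 (-0.43, exact permutation test, adjusted p = 0.01).

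Among the other pairs, Cycs gained 0.42 on the log2 scale over Cyc1 upon cold, and all 6 cold mice lay above all TN mice in this difference (exact permutation test, adjusted p = 0.01). Sdha lost 0.32 to Sdhb, with all 6 cold mice below all TN mice (exact permutation test, adjusted p = 0.01). Within complex II the flavoprotein and the iron-sulfur protein transcripts therefore did not keep their TN ratio. For Cox5a and Cox5b, both of complex IV, the change in their difference was 0.02 (exact permutation test, unadjusted p = 0.68).

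Within groups, members moved together from mouse to mouse. TN WT replicate 3 was the highest of its group for all 35 members and TN WT replicate 2 the lowest for 34, with Atp5g1 as the exception. In cold WT, replicate 3 was highest for 34 members, all but Atp5e. The ratio of the highest to the lowest TN WT mouse had a median of 1.64 over the members and reached 2.19 for Cycs, whereas in cold WT it had a median of 1.30. The adipocyte markers varied in the same libraries, with a summed CPM of 7910, 4282 and 10450 in TN WT and 19180, 14010 and 27430 in cold WT. Of these 6 markers 3 rose in WT (Fabp4, Pparg and Cidec), their median log2 fold change was 1.02, and their part in the members' rise was not tested.

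Markers of other cell types moved as well. The 6 lymphocyte markers had a median of -0.66 upon cold in WT (1 called lower) and a summed 735 to 1150 CPM in TN WT against 382 to 664 CPM in cold WT. Their defining genes Cd79a and Cd3e were not at 0 in any group, and the 6 macrophage and 6 endothelial markers had no call in WT. Of 6 epithelial markers 1 was called lower, with a summed 200 CPM in TN WT replicate 3 and at most 10.3 CPM in the other 11 libraries. The part of these cell types in the result was not tested. Ucp1 lay at 0.204 to 0.648 CPM in TN WT and at 2171 to 3506 CPM in cold WT.

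In HIF2α AKO mice the same 34 members rose upon cold, and 15.6% of all tested genes were called higher there (24.9% had groups that did not overlap in this direction). The median log2 fold change of the members was 1.68, beside -0.05 over all tested genes. Cycs went from 49.3, 91.6 and 69.9 CPM in TN HIF2α AKO to 560, 374 and 365 CPM in cold HIF2α AKO (6.16-fold, log2 2.62 ± 0.31 SE). Atp5g1, at 32.9, 24.6 and 28.7 CPM against 32.8, 33.7 and 31.8 CPM, was again the member without a call (log2 0.19 ± 0.16 SE, adjusted p = 0.38), and it turned to -0.09 when libraries were scaled by size alone. In this genotype Atp5g3, at 0.90, lost its call without TN HIF2α AKO replicate 1 (0.76), TN HIF2α AKO replicate 3 (0.86) or cold HIF2α AKO replicate 1 (0.85). Atp5j, at 0.56, lost its call without 1 of 7 libraries, namely TN WT replicate 1, TN HIF2α AKO replicate 1 or 3, cold WT replicate 1 and each cold HIF2α AKO replicate (0.43 to 0.58). Without the 2 libraries with muscle transcripts the median was 1.70, and 33 members were called, the lost one being Atp5j (0.68, edgeR adjusted p = 0.0673).

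Markers of immune cells moved the other way in these mice. The log2 fold changes upon cold of all 6 macrophage markers were below 0, their median was -0.72, and Mrc1 was called lower. The groups did not overlap for 5 of them, and their summed CPM was 2093 to 2270 at TN and 1192 to 1400 upon cold. The 6 lymphocyte markers had a median of -0.70 (2 called lower) and a summed 719.6 to 1164 CPM at TN against 394.3 to 619 CPM upon cold. Of the 6 adipocyte markers Fabp4 was called higher, and their median was 0.68. The part of these cell types in the members' rise was not tested.

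Between genotypes upon cold, no member passed the test in either direction (edgeR's quasi-likelihood test, Benjamini-Hochberg adjusted), while 1 of 15306 genes did, or 0.00653%. At an unadjusted p under 0.05 the count was also 0, and it ranged from 0 to 3 over the 20 edgeR fits and was 2 with DESeq2, which called no member after adjustment either. The median log2 fold change was 0.26 and 33 of the 35 members had a value above 0. The 2 others were Atp5g1 at -0.27 ± 0.16 (SE) and Atp5g3 at -0.14 ± 0.23 (SE), both genes of the c subunit.

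Cycs had the largest difference, with 273, 305 and 341 CPM in cold WT and 560, 374 and 365 CPM in cold HIF2α AKO (log2 0.50 ± 0.29 SE, edgeR unadjusted p = 0.113, adjusted p = 1). Cox5a, a matrix-side subunit of complex IV, followed, with 315, 340 and 342 CPM against 563, 376 and 408 CPM (log2 0.44 ± 0.21 SE, edgeR unadjusted p = 0.0588). For both genes, and for Atp5e, the lowest HIF2α AKO mouse lay above the highest WT mouse, so that 3 members were apart in this direction, beside 3.80% of all tested genes. Atp5g1 was apart in the opposite direction, as were 3.73% of all tested genes.

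Cold HIF2α AKO replicate 1 stood above the other 2 mice of its group for 34 of the 35 members, Atp5g1 excepted, and it is the library with 1723 CPM of muscle markers. Its 5 thermogenic markers (Ucp1, Cidea, Dio2, Elovl3 and Ppargc1a), at 8129 CPM in sum, were also above those of the other 2, at 5336 and 5568 CPM. In cold WT the sums were 3155, 4602 and 3333 CPM. Ucp1 alone lay at 5897, 4046 and 4146 CPM in cold HIF2α AKO, and no thermogenic marker was called between genotypes. Without cold HIF2α AKO replicate 1 the median log2 difference between genotypes upon cold was 0.095, with 32 of 35 values above 0, and Cycs stood at 0.27 and Cox5a at 0.24. The 6 adipocyte markers summed to 21250 CPM in cold HIF2α AKO replicate 1 and to 19940 and 17020 CPM in replicates 2 and 3. The part of muscle RNA or of adipocyte content in the difference was not tested. The 6 macrophage markers all had values below 0 in this contrast as well, with a median of -0.375 and no call.

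The study took a raw p under 0.15 and a log2 change of more than 0.2 either way as its limits for this contrast, with DESeq2. With DESeq2 8 members were higher by these limits (Cycs, Cox5a, Atp5d, Atp5e, Atp5h, Sdhb, Sdhd and Uqcrc1) and 0 lower, beside 5.60% of all tested genes that were higher and 3.19% that were lower. With edgeR 4 members were higher (Cox5a, Atp5e, Cycs and Atp5h), beside 4.74% of all tested genes, and Atp5g1 was lower, beside 4.24%.

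**Figure D4:**
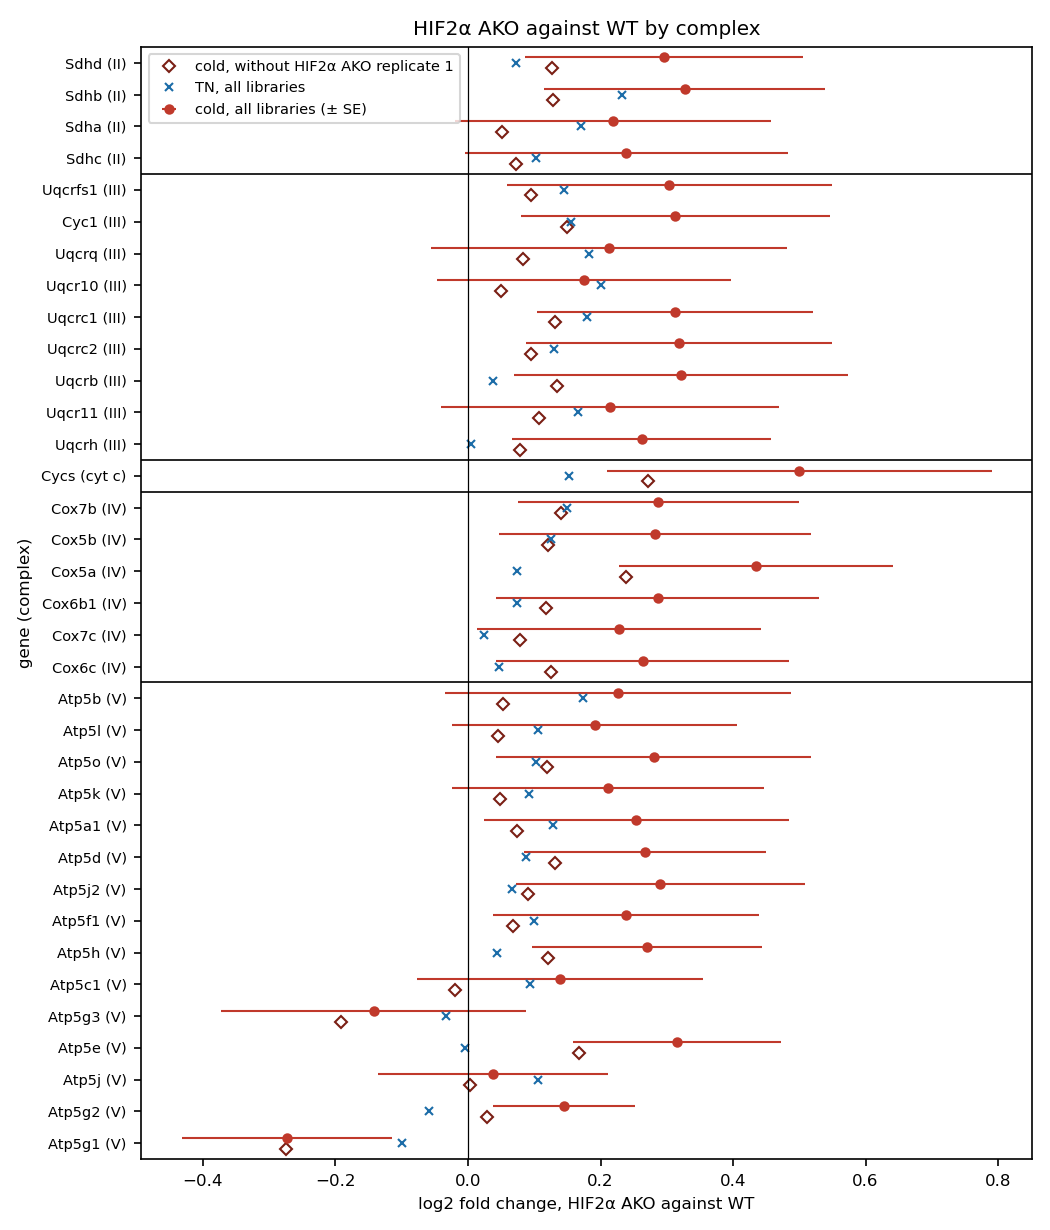
Log2 fold change of HIF2α AKO against WT for each member upon cold in all libraries (circles, with SE), upon cold without cold HIF2α AKO replicate 1 (diamonds) and at TN (crosses). The diamonds lie left of the circles, with the one for Atp5g1 almost on its circle at -0.27, and 2 of the 3 c subunit genes lie below 0.

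By complex, the medians of HIF2α AKO against WT upon cold were 0.27 for complex II, 0.30 for complex III, 0.28 for complex IV and 0.23 for complex V. The order of the first 3 depended on the fit, whereas complex V was last in all 22. Other scalings and fits without a TN library could hardly change this order. No gene of any complex passed the test.

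At TN no member differed between genotypes (edgeR's quasi-likelihood test, Benjamini-Hochberg adjusted, also 0 at an unadjusted p under 0.05 and 0 with DESeq2), beside 0.00653% of all tested genes. The median log2 fold change was 0.10 with 31 values above 0, from Atp5g1 at -0.10 to Sdhb at 0.23. TN HIF2α AKO replicate 2, with 1983 CPM of muscle markers, was the highest of its group for 34 members. Its 6 adipocyte markers, at 11460 CPM in sum, were also above those of replicates 1 and 3, at 6456 and 8807 CPM. The part of muscle RNA or of adipocyte content was not tested. Without this library the median was -0.055 with 6 values above 0. Without TN WT replicate 2 it was -0.072 with 2 values above 0, so the direction at TN rested on single libraries.

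The interaction, which asks whether the cold response differed between genotypes, gave 0 calls among the members and among all genes (0%), with 0 members at an unadjusted p under 0.05 in edgeR and 0 in DESeq2. Its median was 0.16 and its largest value 0.36 for Cox5a. Without cold HIF2α AKO replicate 1 the median was -0.030, without TN WT replicate 3 it was -0.028 and without TN HIF2α AKO replicate 1 it was -0.012.

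Levels between genes were compared per kilobase of exon, as CPM per kb. Atp5b was the highest member in cold WT with 1993 ± 367 (SD, n = 3), followed in complex V by Atp5a1 with 985 ± 161 (SD, n = 3). Atp5g3 came to 510 ± 89.3, Atp5g2 to 106 ± 5.81 and Atp5g1 to 8.29 ± 0.961 CPM per kb (SD, n = 3), so Atp5g3 was the most abundant of the c subunit transcripts by this measure. The Atp5g1 value rests on an exon length of 4778 bases, against 731 for Atp5g2 and 724 for Atp5g3, but Atp5g1 was also the lowest of the 3 in plain CPM.

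In complex II the order in cold WT was Sdha at 460 ± 85.7, Sdhb at 389 ± 31.3, Sdhd at 349 ± 37.2 and Sdhc at 82.6 ± 16.3 CPM per kb (SD, n = 3). Sdha and Sdhb differed by less than the SD of Sdha, and Sdhb and Sdhd by slightly more than the SD of either. Sdhc lay apart. With the exons of all annotated transcripts as length Sdhd came first, and Sdhc remained last. In complex III the top was Uqcr10 with 697 ± 113 and in complex IV Cox6b1 with 725 ± 117 (SD, n = 3), and both were also the top with the other lengths used. The foot of complex III was Uqcrq with 252 ± 42.8 and that of complex IV Cox7c with 312 ± 54.1 (SD, n = 3), but these places depended on the length. Cox6c was the foot of complex IV with the longest transcript (80.1 CPM per kb) and with all exons (68.2 CPM per kb), and Uqcrc1 that of complex III with all exons (196 CPM per kb). Cycs, at 98.0 ± 10.9 CPM per kb (SD, n = 3) over an exon length of 3123 bases that holds a long transcript end, was below every gene of complex III with each length, but with both other lengths it was above Cox6c.

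Many of these genes have processed copies elsewhere in the genome, and reads that aligned to several places were tallied apart and credited to no gene. The share of stretches of 50 bases in each member's transcript that also occurs in transcripts of other genes was 0% for 12 members, among them Atp5g3 and Atp5e, and over 25% for 10. It was 87.4% for Atp5g2, mostly shared with the pseudogene Gm10175, 84.8% for Atp5l, 53.0% for Cox7c and 50.5% for Atp5h. For Atp5g1 it was 11.6%, but the shared stretch with Gm10039 covers bases 53 to 436 of a transcript of 4715 bases. The counts of these genes, and levels per kb in particular, are uncertain for that reason.

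The cold response was seen in members with and without shared stretches, but not all such stretches come from processed copies. Uqcrc2 shares its stretches with Pdzd9 alone and Atp5a1 with Haus1 alone, both overlapping genes on the other strand. The median log2 fold change in WT was 1.73 for the 12 members without a shared stretch, 1.45 for the 13 with up to 25% and 1.59 for the 10 above. The share of listed reads that aligned to several places was itself higher upon cold, 7.55% ± 1.58 in cold WT against 5.06% ± 0.577 in TN WT (SD, n = 3), and its part in the low values of Atp5g1 and Atp5g2 was not tested. Exons of 7 members overlap those of a gene on the other strand, namely Atp5j (Gabpa), Cox6c (Vps13b), Atp5a1 (Haus1), Atp5d (Cbarp), Atp5f1 (Wdr77), Uqcrb (Gm10767) and Uqcrc2 (Pdzd9). The strand setting of the counting is not given in the sources used here, so reads of these pairs cannot be told apart where they overlap.

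The promoters of 27 of the 35 members were found in RefSeq's table, as 30 windows of 300 bases, and were searched on both strands. The NRF1 site GCGCATGC was in 23.3% of the member windows against 4.7% of those of tested genes and 2.7% of all 32851 promoters. It was in the windows of Cycs, Uqcrc1, Uqcr11, Sdhb, Atp5g2, Atp5k and Atp5l, that is, in genes with log2 fold changes upon cold from 0.52 to 2.28. The ERR site TCAAGGTCA was in those of Sdhd and Atp5g3, 6.7% against 0.3% of tested genes and 0.4% of all promoters.

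The ETS site CCGGAAG was in 33.3% of the member windows against 15.1% of tested genes and 8.9% of all promoters, and the YY1 site ATGGCG in 26.7% against 13.2% and 8.9%. The SP1 site GGGCGG was less frequent in member windows, 26.7% against 58.8% of tested genes and 35.7% of all promoters. The core of the hypoxia response element, ACGTG or GCGTG, was in 76.7% of member windows against 58.8% and 43.8%, and the E-box CACGTG, which contains ACGTG, in 10.0% against 9.3% and 7.2%. These shares describe letters in windows of this length, and the 3 genes of the c subunit did not share a motif of the NRF1, ERR, ETS or YY1 kind.

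The assembly factors that put the complexes together also rose, with smaller values. Of 38 assembly factors listed 36 were tested, and 30 of these were called higher and none lower in cold WT, and their median log2 fold change was 0.79. The largest was Atpaf2, which assembles the F1 head, at 1.52, and the smallest Cox20, a chaperone for complex IV, at -0.001 (edgeR adjusted p = 0.998). For complex V the 5 assembly factors were all called, with a median of 1.20, whereas Atpif1, the inhibitor of the ATP synthase, was at -0.21 ± 0.11 (SE, edgeR adjusted p = 0.175).

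Complex I, which takes electrons from NADH and pumps protons, had 35 subunit genes tested, all called higher in cold WT, with a median of 1.38 and a range from Ndufa7 at 0.82 to Ndufb6 at 1.84. It thus lay near complex V and below complexes II, III and IV by the medians of the genes listed here. The list of COX isoform genes is not confined to tissue-specific forms, and 6 of its 10 tested genes were called higher in cold WT. Of these, Cox7a1 at 5.58 ± 0.58 and Cox8b at 4.18 ± 0.48 (SE) lay far above any member. Cox4i1, Cox6a1, Cox7a2 and Cox8a were also called, at 1.52, 1.57, 1.32 and 1.23. Cox6a2 was lowest at -0.34 ± 0.81 (SE, edgeR adjusted p = 0.776). Between genotypes upon cold none of the tested genes of these lists was called either. Values above 0 were found for 32 of 36 assembly factors and 35 of 35 complex I genes, beside 33 of 35 members and 6706 of the 15306 tested genes.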

How the data were processed

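Whole-read counts per gene were deposited by the authors for 12 libraries of mouse iWAT, 3 in each group, as unnormalised counts. Per the labels and the paper's methods, reads were trimmed with Trim Galore 0.4.4, aligned to GRCm38 with STAR 2.6.1d and counted with HTSeq 0.13.5. The annotation and the strand setting are not given in the sources used here. Reads assigned to no gene, 21.9 to 27.0% of those listed per library, were left out of library sizes. They include reads that aligned to several places and reads that were ambiguous between genes. Each library was taken as 1 mouse, and the labels do not say whether tissue was pooled.

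The main test was edgeR 4.0.16 in R 4.3.3, with DESeq2 1.42.0 and limma 3.58.1 as alternatives. After filterByExpr (minimum count 10, minimum total 15), a quasi-likelihood model of 4 groups was fitted after TMM scaling (factors 0.829 to 1.20), and Benjamini-Hochberg adjustment ran over 15306 genes with a limit of 0.05. The common biological coefficient of variation was 0.202. Log2 CPM used a prior count of 2. Differences between paired members were tested by exact permutation. Alternatives were other scalings, filters, tools, the groups of a contrast alone, a replicate block and each library left out. Scripts were tested on simulated data. Same-numbered replicates were not treated as pairs, since only 5 of 18 pairs had correlated deviations above 0.1 (range -0.43 to 0.39). The largest were 0.392 and 0.305, for replicates 2 and 3 of TN WT and cold WT, so some pairing by number was not excluded. Replicate libraries differed by more than sampling noise.

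Exon lengths are unions over GENCODE M21 transcripts tied to RefSeq records, and promoters are from RefSeq (GRCm38.p6). The members and lists were chosen with earlier results of these data known. Values in every mouse are given for the genes with the largest and smallest rise upon cold in WT in each complex, for Cycs and for the c subunit genes, and of other lists the genes with the largest and smallest value are named. Cox5a, Atp5e, Atpif1, Atp5s, Usmg5, 2010107E04Rik, Cox4i1, Cox6a1, Cox7a2, Cox8a, the members past the study's limits and the markers were named after their values were seen.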

Additional observations from a re-analysis of the deposited data

Results flagged for a closer look

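The reads that aligned to several places, which enter no gene count, took a larger share of the listed reads upon cold than at TN. The mean was 7.55% in cold WT and 7.76% in cold HIF2α AKO, and every cold library lay above the highest TN WT library at 5.44%. These reads were looked at because they lie outside the counts that were compared and exceeded the level in the control group. Their part in the results was not tested.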

How the results depend on the processing

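Members called upon cold numbered 34 in both genotypes and 31 to 35 over all alternatives in WT, and 0 between genotypes in every fit. Scaling by library size alone moved the median upon cold in WT from 1.54 to 1.24, with the median of all genes at -0.33. The study's limits gave 5 members between genotypes upon cold with edgeR, and 8 with DESeq2 (chosen after seeing the data), where the adjusted limit gave 0. Counts called with 1 library left out ranged from 32 to 35 in WT and 32 to 34 in HIF2α AKO, with medians of 1.36 to 1.75 and 1.52 to 1.85. Medians between genotypes then ranged from 0.095 to 0.379 upon cold and from -0.072 to 0.269 at TN, and that of the interaction from -0.030 to 0.328. With both libraries that hold muscle transcripts left out, an alternative chosen after seeing the data, the TN median was -0.055. The cause of these changes was not tested.

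Of the 6 paired differences 4 passed, and 3 to 5 did with 1 library left out, when Atp5g1 against Atp5g2 ranged from -0.425 to -0.257, Atp5g1 against Atp5g3 from -0.829 to -0.561, Atp5g2 against Atp5g3 from -0.455 to -0.284, Cycs against Cyc1 from 0.378 to 0.471, Cox5a against Cox5b from -0.003 to 0.062 and Sdha against Sdhb from -0.357 to -0.283. Whether replicate numbers pair the mice was not settled. With them as pairs (replicate block) 0 of the 6 passed, in a test that allows no p below 0.03125. The values were then the same: -0.691 (adjusted p = 0.0625, exact permutation test) for Atp5g1 against Atp5g3, -0.364 (adjusted p = 0.0938, exact permutation test) for Atp5g2 against Atp5g3, 0.423 and -0.317 (both adjusted p = 0.0625, exact permutation test) for Cycs against Cyc1 and Sdha against Sdhb. In edgeR the replicate block left 34 members called in WT, 33 in HIF2α AKO and 0 between genotypes, with medians of 1.54, 1.66 and 0.268 upon cold.

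The median level of the members in cold WT was 401 CPM per kb, against 324 with the longest transcript as length and 215 with all annotated exons. Upon cold no member turned direction in WT, and Atp5g1 did in HIF2α AKO (-0.086, library size only). Between genotypes upon cold 3 members turned in at least 1 alternative, Atp5g3 (-0.213 to 0.012 with 1 library left out), Atp5j (-0.008 to 0.154 likewise) and Atp5c1 (-0.019 without cold HIF2α AKO replicate 1). At TN 32 members turned in at least 1 alternative, 29 of them when TN WT replicate 2 was left out and 27 when TN HIF2α AKO replicate 2 was, and the 32 included Atp5g1 (0.16 with limma voom, 0.061 without TN WT replicate 3, 0.002 without TN HIF2α AKO replicate 2 and likewise without both muscle-holding libraries). In the interaction 23 did, 18 of them without TN WT replicate 3, 17 without cold HIF2α AKO replicate 1 and 16 without TN HIF2α AKO replicate 1. None of these was called where it turned. Calls upon cold that were lost under single alternatives were those of Atp5e, Atp5g2, Atp5g3 and Atp5j. Depth limited little here, since the lowest member count was 678.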
